A study of Mus musculus with 97 samples.

Results

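Tysnd1 and Pcbd2 are 2 of the 19962 mouse genes in the table, and both are described here over all 12 groups of genotype, treatment and brain region. They were selected on fold changes measured in these libraries: those of Tysnd1 after DD in APOE4 hippocampus and between the brain regions of vehicle mice, and that of Pcbd2 after DC in APOE4 hippocampus. Those 3 differences are given as descriptions, without a test. Tysnd1 (gene ID 71767) lies at chr10:61695500-61702773 and Pcbd2 (gene ID 72562) at chr13:55727097-55776830 of GRCm38.p6, the mm10 assembly, and both are annotated as protein-coding.

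The assay was GeoMx Digital Spatial Profiling (NanoString), in which whole-transcriptome probes bound to a section carry tags that ultraviolet light frees from a chosen region, to be sequenced. The mice were older human APOE knock-in animals, in which the human APOE4 or APOE3 allele is expressed. DD mice received weekly totals of 3 mg/kg doxorubicin with 10 mg/kg docetaxel, DC mice received 3 mg/kg doxorubicin with 40 mg/kg cyclophosphamide, and vehicle mice received 50% DMSO in phosphate-buffered saline. All were injected into the peritoneum 2 times per week for 2 weeks, and captured regions of hippocampus or cortex came from sections of 8 µm. Hippocampus held 8 libraries in each of the groups APOE4 DD, APOE4 DC, APOE4 vehicle, APOE3 DD, APOE3 DC and APOE3 vehicle. Cortex held the same 6 groups with 8 libraries each, except APOE3 DD with 9. The labels give neither the exact age or sex nor how regions were chosen, and do not tie captured regions to animals. The spread is therefore one between captured regions, and p-values below are too small if regions of the same group came from one animal. Where hippocampus and cortex regions share an animal, that pairing is ignored. The direction of the resulting error in the region tests is not known. The APOE4 libraries all carry one DSP code in their titles and the APOE3 libraries another, which is read here as the collection plate. Genotype and plate therefore cannot be told apart.

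Tysnd1 encodes a serine protease of the peroxisome matrix, known from human and rodent cells to trim the import signals and leader peptides of enzymes of peroxisomal beta-oxidation. Its substrates include the thiolases Acaa1a and Scp2 and the bifunctional enzyme Hsd17b4. Pcbd2 encodes a pterin-4a-carbinolamine dehydratase, which removes water from the oxidised form of tetrahydrobiopterin so that Qdpr can return it to the active cofactor. Tetrahydrobiopterin serves the hydroxylases that make dopamine and serotonin and the nitric oxide synthases. Pcbd2 and its paralogue Pcbd1 are also known as dimerization cofactors of the transcription factor HNF1.

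The stretch that ends just before the annotated start of Tysnd1, the gene with the stronger probe signal of the pair, is shown to place its transcript. It covers chr10:61695264-61695499 on the plus strand of GRCm38.p6, comes from RefSeq, and has the motifs CCAAT and GGGCGG in capitals, on either strand (ATTGG or CCGCCC on the other). Tysnd1 upstream: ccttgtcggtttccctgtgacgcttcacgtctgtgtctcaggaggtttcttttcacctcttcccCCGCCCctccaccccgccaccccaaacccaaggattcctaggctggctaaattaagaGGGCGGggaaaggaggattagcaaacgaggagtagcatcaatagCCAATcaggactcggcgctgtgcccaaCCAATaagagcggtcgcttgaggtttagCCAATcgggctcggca
Its window of 250 bases held 3 matches to CCAAT and 2 to GGGCGG. Of 32851 RefSeq promoter windows of that length, 2.79% held 3 or more CCAAT and 16.7% held 2 or more GGGCGG. The Pcbd2 window, with 70.8% G and C, held 0 matches to either motif, to TATAAA or to CACGTG. It lies within the annotated gene, so it is not printed. A match is a description of letters and not a bound site.

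Library totals were between 21568 and 1850582 counts; the medians were 61380 in APOE4 and 30579 in APOE3. The negative probe, a target-free control for background, had a median value of 2.68 in APOE4 and 1.27 in APOE3 libraries. It was 5 or more in 13 libraries, all APOE4, of which 6 were among the 8 of APOE4 DC hippocampus and 4 among the 8 of APOE4 DC cortex. The low-count filter left 38 genes for testing in hippocampus, 57 in cortex and 58 over both, and Tysnd1 and Pcbd2 passed in each. Of the marker lists for cortex, hippocampus, neurons, astrocytes, microglia, vessels and choroid plexus, 0 members were tested and 0 had a median over 2 times the negative probe. The labelled regions therefore could not be checked against their markers. Of 5 oligodendrocyte markers, Olig2 was the 1 tested, with a median ratio to the negative probe of 4.28 in hippocampus and 9.08 in cortex.

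By its median in each region, Tysnd1 stood well above background. Its count ran from 14 to 789 over the 97 libraries, with a median of 91, and was over 2 times the negative probe in all 97. The median ratio of count to negative probe was 29.5 in hippocampus and 88.8 in cortex, which ranked Tysnd1 at place 7 and place 4 of 19962 genes. The ratio was lowest in APOE4 DC hippocampus, at 2.06 to 56.9 with a median of 8.25. Pcbd2 had a weaker signal, with counts from 2 to 115 and a median of 17. Its median ratio was 4.66 in hippocampus, place 28, and 12.3 in cortex, place 24. In 7 hippocampus libraries the Pcbd2 count was 2 times the negative probe or less, and 5 of these were APOE4 DC hippocampus.

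**Figure D1:**
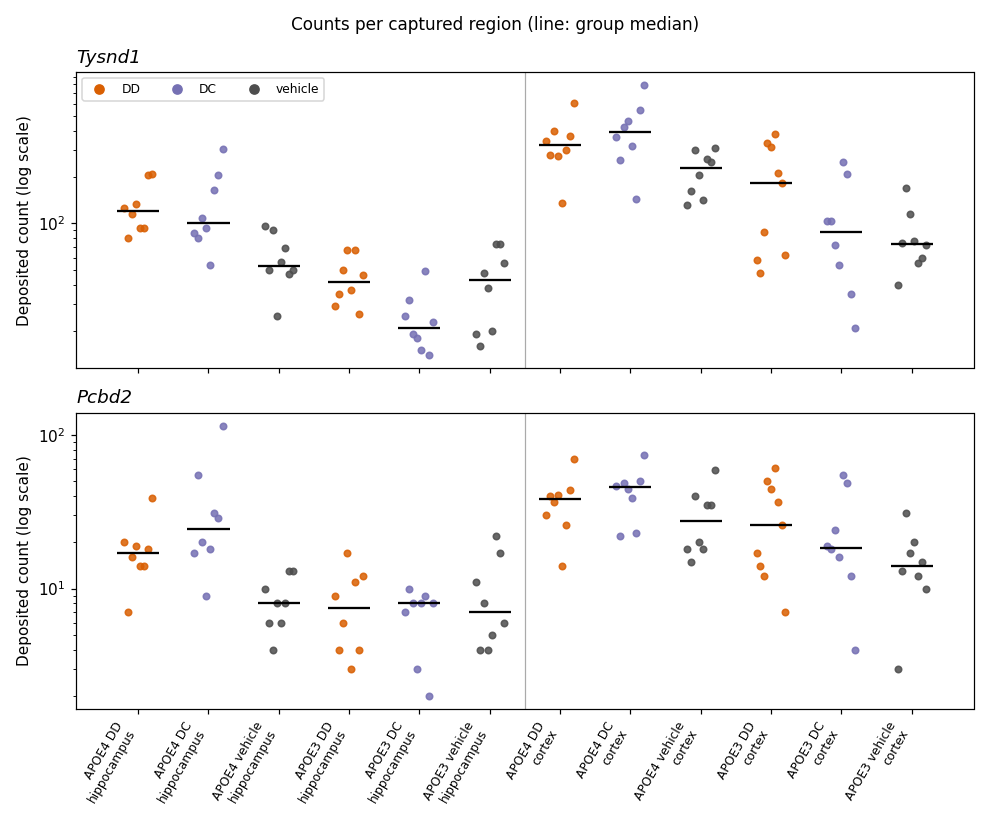
Deposited counts of Tysnd1 (top) and Pcbd2 (bottom) on a log scale in each of 97 captured regions, by group, with hippocampus left of the vertical line and cortex right of it. Points are libraries, colours are treatments and black lines are group medians; median Tysnd1 counts range from 21 in APOE3 DC hippocampus to 395 in APOE4 DC cortex.

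The other genes of both pathways gave no such signal. Of 61 further genes of peroxisome biogenesis, peroxisomal lipid oxidation and redox, TYSND1 substrates and partners, tetrahydrobiopterin synthesis and recycling, tetrahydrobiopterin-dependent enzymes and HNF1, 0 passed the filter. Acaa1a had a median ratio to the negative probe of 0.991 in hippocampus and 1.67 in cortex. For Scp2, Hsd17b4 and Lonp2, a second peroxisomal protease, the ratios lay between 0.988 and 1.04 in hippocampus and between 0.944 and 1.01 in cortex. The tetrahydrobiopterin genes Pcbd1 and Qdpr had ratios of 0.988 and 0.956 in hippocampus and 1.01 and 0.938 in cortex. The probe signal of these genes was near that of the negative probe, so their levels could not be compared between groups at this depth.

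Levels were scaled with TMM factors to counts per 1000 counts of the 58 tested genes, and are compared within a gene. Tysnd1 was ordered by region first: the 6 cortex groups held places 1 to 6 and the 6 hippocampus groups places 7 to 12. The highest geometric mean was 48.5 per 1000 in APOE4 DC cortex, and the lowest was 18.7 per 1000 in APOE4 DC hippocampus. Of the 11 steps between neighbours in that order, the step between APOE4 DD cortex and APOE3 DD cortex exceeded the larger of both SDs on the log2 scale, and the other 10 did not. Pcbd2 was highest in APOE3 DC cortex at 8.13 per 1000 and lowest in APOE4 vehicle hippocampus at 2.75 per 1000. For Pcbd2, 0 of 11 steps exceeded the larger SD.

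**Figure D2:**
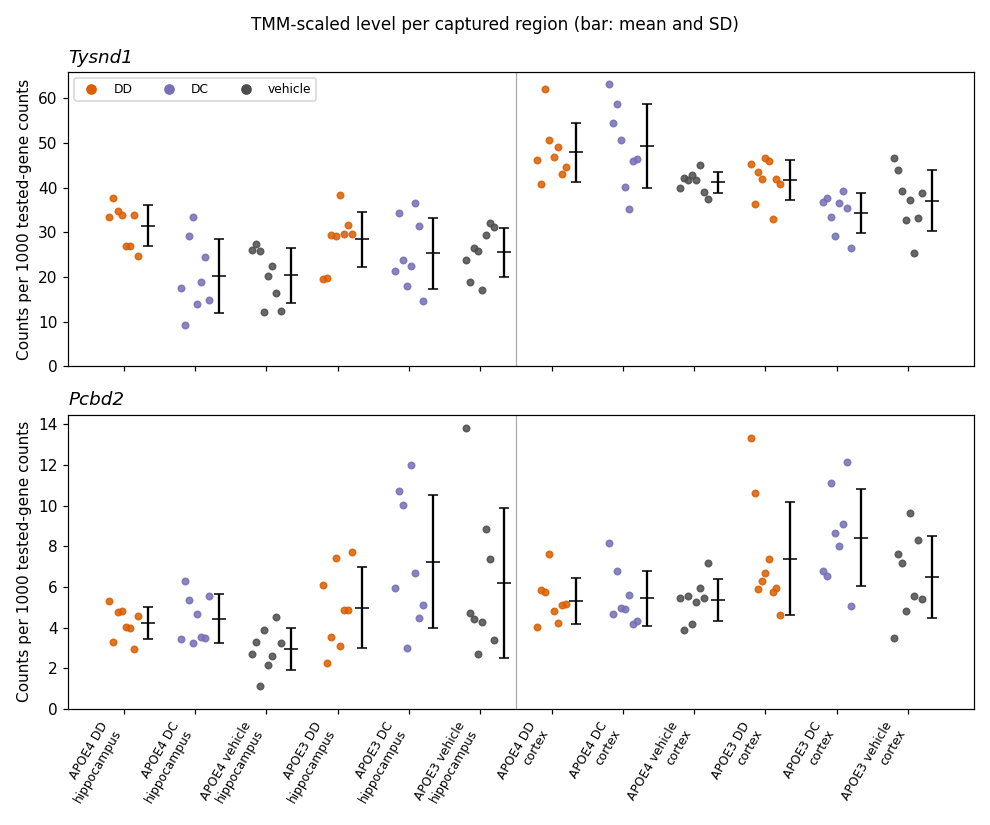
TMM-scaled level of Tysnd1 (top) and Pcbd2 (bottom), in counts per 1000 tested-gene counts, for each captured region by group, with hippocampus left of the vertical line. Points are libraries and bars give the group mean and SD; the Tysnd1 means run from 20.2 to 31.5 in hippocampus and from 34.4 to 49.3 in cortex.

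Tysnd1 was lower in hippocampus than in cortex in every combination of genotype and treatment. In APOE4 DC, APOE3 DD and APOE3 DC mice, whose libraries played no part in choosing the gene, all 3 differences passed the test. Over all 4 treated combinations the mean difference was log2 -0.74 (SE 0.0810, 1.67-fold lower). That mean is given as a description, since it includes the APOE4 DD hippocampus libraries on which Tysnd1 was chosen. Of the 58 genes, 75.9% passed for it, in either direction, so a called region difference was common in these libraries.

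In APOE4 DC mice, the Tysnd1 level was 9.16 to 33.4 per 1000 in hippocampus (median 18.2), against 35.3 to 63.2 per 1000 in cortex (median 48.5). All 8 hippocampus libraries lay below all 8 cortex libraries. The difference was log2 -1.31 (SE 0.155, edgeR adjusted p = 1.78e-12), where 62.1% of genes passed. Negative probe values were also higher in this hippocampus group, at a median of 10.9, against 4.26 in cortex. The negative probe was 5 or more in 6 of the 8 hippocampus and 4 of the 8 cortex libraries. Without libraries of that kind, the difference was -0.55 (edgeR adjusted p = 0.0557) and did not pass, with few libraries left. With the negative probe subtracted it was -0.58, and as a ratio of count to negative probe -3.07, and both passed.

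In APOE4 DD mice, the level was 24.6 to 37.6 per 1000 in hippocampus (median 33.8), against 40.8 to 62.2 per 1000 in cortex (median 46.5). The ranges did not overlap. This gave a difference of log2 -0.61 (SE 0.153), with 62.1% of genes passing. It is given as a description, since its hippocampus libraries are those of the DD difference for which Tysnd1 was chosen.

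In APOE3 DD mice, hippocampus had 19.6 to 38.3 per 1000 (median 29.5), against 32.9 to 46.7 per 1000 (median 42.1) in cortex. Of 8 hippocampus libraries, 7 lay below all 9 cortex libraries. DD hippocampus minus cortex was thus log2 -0.57 (SE 0.161, edgeR adjusted p = 0.00154, 58.6% of genes passing). In APOE3 DC mice, hippocampus had 14.7 to 36.5 per 1000 (median 23.2), against 26.5 to 39.2 per 1000 (median 36.03) in cortex. The ranges overlapped, and 5 of 8 hippocampus libraries lay below all cortex libraries. The difference was log2 -0.48 (SE 0.179, edgeR adjusted p = 0.0197, 51.7% of genes passing). This call was lost without APOE3 DC hippocampus replicate 4 (-0.42) or replicate 8 (-0.37).

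In vehicle mice, for which Tysnd1 was chosen, the difference was log2 -1.02 in APOE4 and -0.49 in APOE3 (56.9% and 51.7% of genes passing). In APOE4 vehicle mice, hippocampus had 12.1 to 27.4 per 1000 (median 21.4), against 37.4 to 45.01 per 1000 (median 41.7) in cortex, with no overlap. In APOE3 vehicle mice, hippocampus had 17.05 to 32.1 per 1000 (median 26.1), against 25.4 to 46.7 per 1000 (median 38.03) in cortex, and the ranges overlapped. The mean over both genotypes was log2 -0.76 (63.8% of genes passing). The region effect differed by log2 0.013 (SE 0.141, 95% interval -0.26 to 0.29) between the treated and the vehicle mean, edgeR adjusted p = 0.967, where 0% of genes passed; its vehicle libraries are those the gene was chosen on. Fewer cells of a type and less RNA per cell cannot be told apart in such captured regions.

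The size of the Tysnd1 region effect was compared between treatments and between genotypes, with tests added after the data were seen. Within APOE4 the effect after DD minus that after DC was log2 0.71 (SE 0.216, edgeR adjusted p = 0.0172, 10.3% of genes passing). With DC, the effect in APOE4 minus that in APOE3 was log2 -0.84 (SE 0.236, edgeR adjusted p = 0.0117, 10.3% of genes passing). The first uses the APOE4 DD hippocampus libraries on which Tysnd1 was chosen, so it is not independent of that choice. Without the libraries of high negative probe, which leaves 2 of 8 APOE4 DC hippocampus libraries, the values were -0.15 and 0.043. Leaving out any of 8 single libraries also ended the first call, and any of 6 the second. The other 5 such differences among treatments lay between -0.30 and 0.41, and the other 2 between genotypes were -0.52 with vehicle and -0.04 with DD, and 0 of these 7 passed. Those that involve vehicle, and that between genotypes with DD, share libraries with the choice of Tysnd1. The shares of genes passing were 1.72% for DD against vehicle and 12.1% for DC against vehicle in APOE4, and 0% in the remaining 5 comparisons of this kind.

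Pcbd2 was lower in hippocampus as well, by less. The mean difference was log2 -0.32 over the treated groups (SE 0.109, edgeR adjusted p = 0.00592) and -0.52 over the vehicle groups (SE 0.166, edgeR adjusted p = 0.00390). The treated mean includes the APOE4 DC hippocampus libraries and the vehicle mean the APOE4 vehicle hippocampus libraries. Pcbd2 was chosen on both sets, so neither test is independent of that choice. Of the 58 genes, 75.9% passed for the treated mean and 63.8% for the vehicle mean. Of the 6 single combinations, 1 passed by edgeR and 3 by DESeq2, and all 6 estimates were negative. Between 51.7% and 62.1% of the 58 genes passed by edgeR in these combinations. Relative to the median of all tested genes, the Pcbd2 values ran from log2 -0.74 in APOE4 vehicle to -0.055 in APOE4 DD. Upper-quartile scaling turned the sign of the APOE4 DC estimate, which was -0.24 with TMM factors and 0.14 with upper-quartile factors.

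The Pcbd2 difference that passed was that of APOE4 vehicle mice. Hippocampus had 1.13 to 4.54 per 1000 (median 2.97), against 3.89 to 7.19 per 1000 (median 5.47) in cortex. Of 8 hippocampus libraries, 7 lay below all 8 cortex libraries. The difference was log2 -0.91 (SE 0.227, edgeR adjusted p = 2.82e-04, 1.88-fold lower), with 56.9% of the 58 genes passing. Its hippocampus libraries are also the vehicle libraries of the DC difference for which Pcbd2 was chosen, so this test is not independent of that choice. The other 5 lay between -0.45 and -0.13, with SEs of 0.200 to 0.249 and adjusted p of 0.0839 to 0.688. Hippocampal counts of Pcbd2 were small, under 10 in 24 of 48 libraries, against 3 of 49 in cortex.

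**Figure D3:**
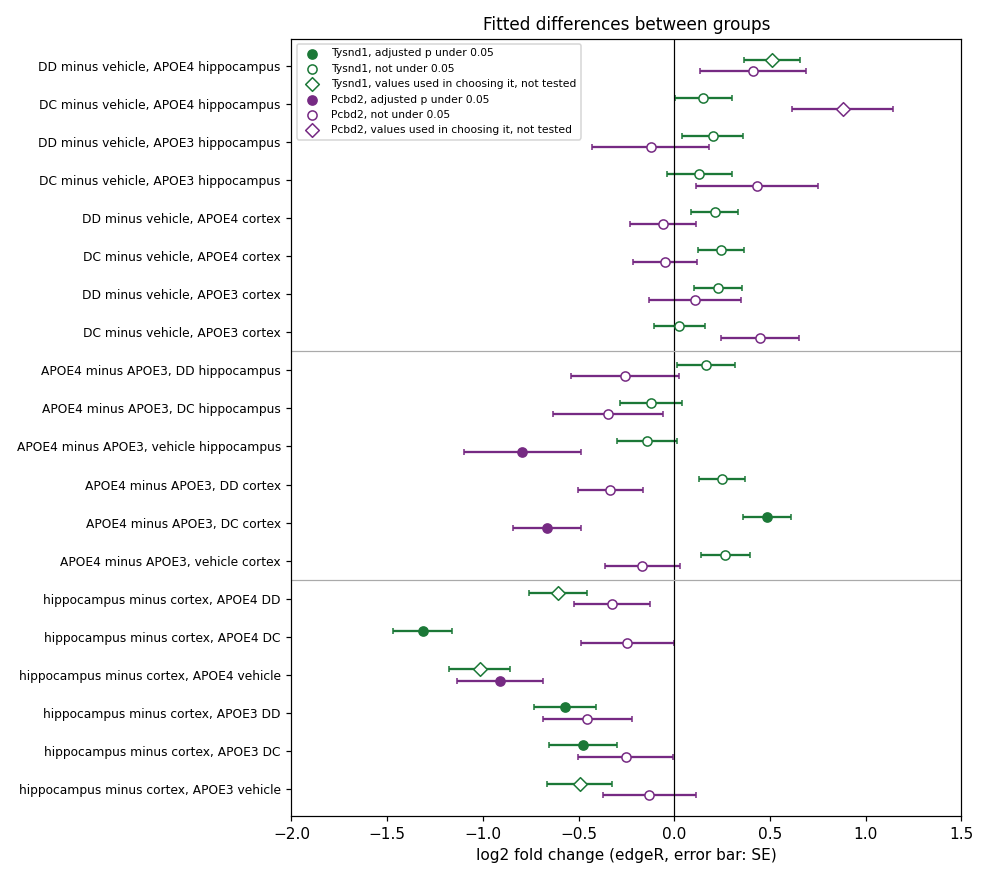
Log2 fold changes (edgeR, horizontal axis) with SE bars for Tysnd1 (green) and Pcbd2 (purple) in 20 comparisons: treatment minus vehicle (top), APOE4 minus APOE3 (middle) and hippocampus minus cortex (bottom). Filled circles passed at an adjusted p under 0.05, open circles did not, and diamonds are differences that were not tested, as their values or libraries were used in choosing the gene. Some circles share libraries with that choice too, among them the filled Pcbd2 circles for region in APOE4 vehicle and for genotype in vehicle hippocampus. All 6 Tysnd1 region values lie between -1.31 and -0.48.

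Between genotypes, the genes differed in opposite directions in cortex after DC. Tysnd1 was higher in APOE4 DC cortex, at 35.3 to 63.2 per 1000 (median 48.5), against 26.5 to 39.2 per 1000 (median 36.03) in APOE3 DC cortex. All 8 APOE4 libraries exceeded the APOE3 mean and 7 exceeded every APOE3 library. APOE4 minus APOE3 was log2 0.48 (SE 0.126, edgeR adjusted p = 0.00324, 1.40-fold higher), with 24.6% of the 57 genes passing.

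Pcbd2 was lower in APOE4 DC cortex, at 4.19 to 8.14 per 1000 (median 4.94), against 5.05 to 12.1 per 1000 (median 8.35) in APOE3 DC cortex. Of 8 APOE4 libraries, 7 lay below the APOE3 mean and 5 below every APOE3 library. The difference was log2 -0.66 (SE 0.178, edgeR adjusted p = 0.00393, 1.58-fold lower). The negative probe differed the same way as Tysnd1, with a median of 4.26 in APOE4 DC cortex and 1.41 in APOE3 DC cortex. Both calls were kept with the negative probe subtracted. The Pcbd2 call was lost without the libraries of high negative probe (-0.45), which numbered 4 of the 8 in APOE4 DC cortex. Both calls were lost as a ratio of count to negative probe (0.77 for Tysnd1, -0.35 for Pcbd2).

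In cortex, APOE4 minus APOE3 for Tysnd1 was log2 0.25 with DD and 0.27 with vehicle (SE 0.120 and 0.128, edgeR adjusted p = 0.129 and 0.132, with 21.1% of genes passing in each). Neither passed the test. In hippocampus the Tysnd1 values were between -0.14 and 0.17 (SE 0.151 to 0.162, adjusted p of 0.489 to 0.675), and 2 of the 3 changed sign with the scaling. The vehicle values in both regions, and the DD value in hippocampus, use libraries on which Tysnd1 was chosen.

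Pcbd2 was also lower in APOE4 vehicle hippocampus than in APOE3 vehicle hippocampus. Its level was 1.13 to 4.54 per 1000 (median 2.97) in APOE4, against 2.72 to 13.8 per 1000 (median 4.57) in APOE3. All 8 APOE4 libraries lay below the APOE3 mean and 4 lay below every APOE3 library. The difference was log2 -0.79 (SE 0.304, edgeR adjusted p = 0.0296), with 39.5% of the 38 genes passing, and it uses the same APOE4 vehicle hippocampus libraries as the difference for which Pcbd2 was chosen. The negative probe had a median of 2.03 in APOE4 and 1.27 in APOE3 here. The raw counts overlapped widely, at 4 to 13 in APOE4 and 4 to 22 in APOE3. The call was lost with upper-quartile scaling (-0.41), without TMM factors (-0.39), and on leaving out any of 6 of the 16 libraries, which gave -0.82 to -0.61: APOE4 vehicle hippocampus replicates 1 and 3 and APOE3 vehicle hippocampus replicates 1, 5, 6 and 7.

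The other 4 genotype estimates of Pcbd2 lay between -0.35 and -0.17 and did not pass (adjusted p of 0.164 to 0.638). In hippocampus 7.89% of genes passed with DD and 21.1% with DC. All 6 Pcbd2 estimates were negative with TMM factors; the value for vehicle cortex was 0.03 without TMM factors, and that for DC hippocampus was 0.14 without TMM factors and 0.02 with upper-quartile scaling. Relative to the median of all tested genes, all 6 were negative under the 3 scalings.

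Against vehicle, the difference Tysnd1 was chosen for was that after DD in APOE4 hippocampus. Its counts there were 126, 80, 116, 134, 93, 94, 206 and 211 after DD, against 96, 50, 91, 25, 56, 69, 47 and 50 with vehicle. Most DD counts lay above the vehicle counts, although the ranges overlapped. The scaled level averaged 31.5 ± 4.69 per 1000 after DD and 20.4 ± 6.14 per 1000 with vehicle (SD, n = 8 each), and 5 of 8 DD libraries exceeded every vehicle library. The fitted difference was log2 0.51 (SE 0.147), where 5.26% of the 38 genes passed. The ratio of count to negative probe was higher too, with a median of 42.6 after DD and 27.2 with vehicle. Without APOE4 DD hippocampus replicate 3 the value was 0.47.

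In the other 7 comparisons with vehicle, Tysnd1 differed by log2 0.03 to 0.24 (SE 0.121 to 0.170), and 0 passed (edgeR adjusted p of 0.211 to 0.909). DC in APOE4 cortex, at 0.24, had an unadjusted p of 0.0481, and DESeq2 also called 0 of these 7. All 7 use vehicle libraries on which Tysnd1 was chosen, so they are not independent of that choice. The estimates were positive in all 7, but DC in APOE3 cortex lay 0.08 below the median of all genes tested. With TMM factors their 95% intervals reached 0.52 at most, for DD in APOE3 hippocampus. Without them the 7 estimates were 0.35 to 0.67 and 5 passed, on a scale where the median of all tested genes moved too. The shares of genes passing after DD were 2.63% in APOE3 hippocampus, 12.3% in APOE4 cortex and 3.51% in APOE3 cortex. After DC they were 21.1% in APOE4 hippocampus, 21.1% in APOE3 hippocampus, 1.75% in APOE4 cortex and 12.3% in APOE3 cortex.

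DC in APOE4 hippocampus gave Tysnd1 counts of 87, 80, 109, 93, 54, 165, 205 and 306, above most vehicle counts. Its scaled level averaged 20.2 ± 8.22 per 1000, close to the vehicle mean (SD, n = 8). As a ratio to the negative probe the order was turned, with a median of 8.25 after DC and 27.2 with vehicle, and the fitted difference of that ratio was log2 -1.29 and passed (34 of the 38 genes passing). With counts, the fitted value was log2 0.15 (SE 0.148, edgeR adjusted p = 0.438).

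For Pcbd2, the difference it was chosen for was that after DC in APOE4 hippocampus. Its counts were 17, 55, 20, 9, 18, 31, 29 and 115 after DC, against 10, 6, 4, 8, 6, 8, 13 and 13 with vehicle. Of the 8 DC counts, 7 exceeded every vehicle count. The scaled level averaged 4.45 ± 1.19 per 1000 after DC and 2.95 ± 1.05 per 1000 with vehicle (SD, n = 8 each), and the fitted difference was log2 0.88 (SE 0.264). The negative probe was high where the counts were high: the library with 115 counts had a negative probe of 93.1, and that with 55 counts had 38.8. The ratio of count to negative probe therefore had a median of 1.65 after DC and 3.48 with vehicle. As that ratio the difference was -0.58, and without the libraries of high negative probe, which leaves 2 of 8 DC libraries, it was 0.22.

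**Figure D4:**
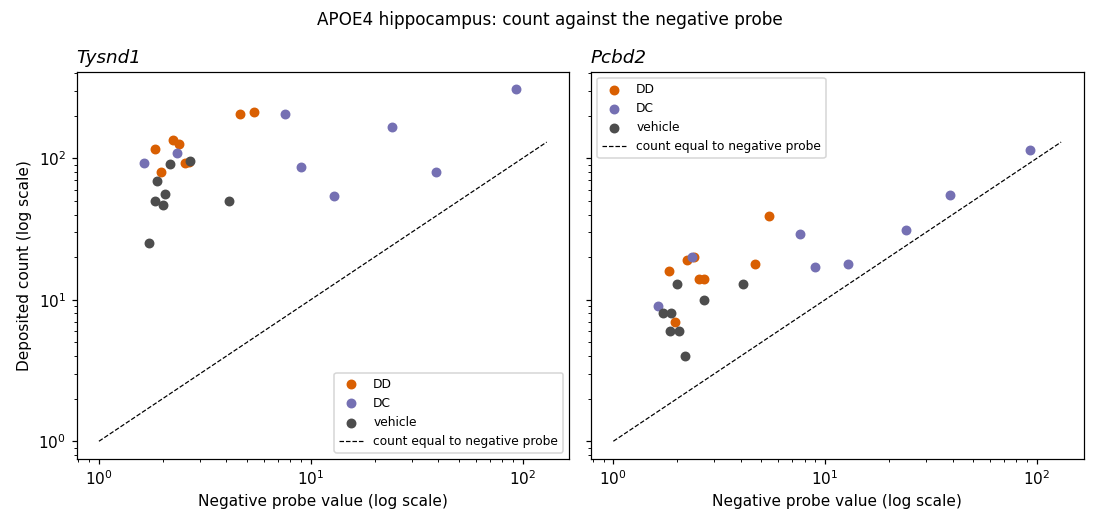
Deposited count of Tysnd1 (left) and Pcbd2 (right) against the negative probe value of the same library in APOE4 hippocampus, both axes on a log scale. Points are the 8 DD, 8 DC and 8 vehicle libraries and the dashed line marks a count equal to the negative probe; 5 DC libraries of Pcbd2 lie within 2 times that line.

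In the other 7 comparisons with vehicle, Pcbd2 differed by log2 -0.12 to 0.45 and 0 passed (SE 0.168 to 0.319, edgeR adjusted p of 0.124 to 0.940), with 1 at an unadjusted p under 0.05 and 0 called by DESeq2. The 3 highest estimates were 0.45 after DC in APOE3 cortex, 0.43 after DC in APOE3 hippocampus and 0.41 after DD in APOE4 hippocampus. The last had counts of 7 to 39 (median 17) after DD, against 4 to 13 (median 8) with vehicle. All 8 of these DD libraries exceeded the vehicle mean of the scaled level, and the 95% interval of the difference was -0.13 to 0.96. The vehicle libraries here are those of the difference for which Pcbd2 was chosen.

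DD and DC were compared directly, and for both genes 0 of 4 comparisons passed by edgeR and 0 by DESeq2. The largest Tysnd1 value, log2 0.36 in APOE4 hippocampus (SE 0.143, edgeR adjusted p = 0.108), was the 1 with an unadjusted p under 0.05, and it shares its libraries with the difference for which the gene was chosen. Pcbd2 values lay between -0.56 and -0.01. That in APOE4 hippocampus, -0.47, uses the DC libraries on which Pcbd2 was chosen. For DD against DC, 10.5% of genes passed in APOE4 hippocampus and 0% in the other 3 groups.

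The response to treatment was also compared between genotypes. For the interaction, 0 of 4 values passed for each gene by edgeR or DESeq2, with 0 at an unadjusted p under 0.05. The Tysnd1 values lay between log2 -0.02 and 0.31 (SE 0.175 to 0.225), and the Pcbd2 values between -0.50 and 0.54 (SE 0.259 to 0.413). The Tysnd1 interaction for DD in hippocampus, 0.31 with a 95% interval of -0.12 to 0.73, shares libraries with the difference the gene was chosen for. All 4 Tysnd1 interactions use vehicle libraries on which the gene was chosen. Both Pcbd2 interactions in hippocampus, 0.45 for DC and 0.54 for DD, use the APOE4 vehicle libraries of the difference for which Pcbd2 was chosen. The shares of genes passing were 5.26% for DC in hippocampus, 3.51% for DC in cortex and 0% for DD in both.

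The genes most like each member were sought among the other 57 tested genes, by Pearson correlation of the 12 group means of log2 CPM. For Tysnd1 they were Trir (r = 0.93), Ctxn1 (r = 0.92) and Gm52523 (r = 0.91), and over the 97 libraries r was 0.71, 0.61 and 0.83. For Pcbd2 they were Actb (r = 0.82), Rrp36 (r = 0.81) and Chic2 (r = 0.81), with r of 0.40, 0.38 and 0.48 over libraries. Tysnd1 and Pcbd2 themselves correlated at 0.49 over group means and 0.25 over libraries. These values share library, scaling and depth between genes, and are descriptions.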

How the data were processed

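The authors deposited expected counts per probe target in a single table, not scaled to depth, per the file header and its values. The submitters' processing notes name mm10; the counting software is not stated in the labels or the file. The table holds 19963 rows, 19962 genes and the negative probe. Values were whole in all but 4 rows and were rounded before modelling. No libraries were identical, and all 97 were used. For hippocampus and cortex separately, 6 groups were fitted with edgeR 4.0.16 (R 4.3.3), and all 12 for region effects. The fits used TMM scaling, filterByExpr with a minimum count of 10 and quasi-likelihood F tests, with p-values adjusted over all tested genes (Benjamini-Hochberg, threshold 0.05). Each SE was derived from the fit's p-value. Log2 CPM used a prior count of 2. The scripts were tested on simulated data.

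Members, lists, comparisons and rules were chosen with earlier results of these data known. Besides the pair, the rule names 7 pathway genes, of which 1 is not reported here, and 3 genes most like each member; counts include it. Alternatives were upper-quartile scaling, no TMM factors, DESeq2 1.42.0, no filter, sums over runs of wells (wells that follow each other in a group), such runs as a random block (limma 3.58.1), count over negative probe, removal of libraries with a negative probe of 5 or more, and leaving out each library. Subtraction of the negative probe and the differences of region effects were added after seeing the data.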

Additional observations from a re-analysis of the deposited data

Results flagged for a closer look

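The Tysnd1 difference between hippocampus and cortex itself differed between groups in 2 tests that were added after the data were seen. In APOE4 mice the effect after DD minus that after DC was log2 0.71 (edgeR adjusted p = 0.0172). It uses the APOE4 DD hippocampus libraries on which Tysnd1 was chosen, so it is not independent of that choice. After DC, the effect in APOE4 minus that in APOE3 was log2 -0.84 (edgeR adjusted p = 0.0117). Leaving out any of 8 single libraries ended the first call (0.45 to 0.65), and any of 6 ended the second (-0.72 to -0.53); APOE4 DC hippocampus replicate 2 gave the value nearest 0 in both. Without libraries of high negative probe, the first value was -0.15 and the second 0.043. With the negative probe subtracted they were 0.074 and 0.35, and neither passed. No library stood apart from its own group in the log2 scaled level of either gene, in 24 groups checked. The check was a Dixon test, which sets the gap beside the lowest or highest library against the range of its group. It did not cover the negative probe, which was 93.1 in APOE4 DC hippocampus replicate 8 against a group median of 10.9.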

How the results depend on the processing

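Tysnd1 was lower in hippocampus under all 9 alternatives in all 6 combinations, and Pcbd2 over the treated mean. The scalings moved the median of all tested genes by up to 0.82 (log2) without TMM factors and 0.57 with upper-quartile factors over both regions, so single signs are read beside that median; relative to it, Tysnd1 stayed lower in hippocampus in all 6 combinations under each scaling. Counts of calls follow, without the differences given as descriptions: of 7 comparisons with vehicle, 6 of genotype, 3 (Tysnd1) or 6 (Pcbd2) of region and 4 of DD against DC. For Tysnd1 against vehicle, calls numbered 0 with TMM factors, 5 without them, and 1 each with the negative probe subtracted, without libraries of high negative probe and as the ratio to the negative probe. The 5 calls were of higher values after treatment, while the ratio call was of a lower value, after DC in APOE4 hippocampus. For the Tysnd1 genotype comparisons, calls numbered 1 in the main setting, 3 without TMM factors and 3 with subtraction. They numbered 2 without libraries of high negative probe, and 0 with no filter or as the ratio to the negative probe. For its region comparisons 3 became 1 with no filter and 2 without libraries of high negative probe, and for DD against DC 0 became 1 as the ratio. For Pcbd2 against vehicle, 0 calls became 2 without TMM factors. Its 2 genotype calls became 1 with upper-quartile scaling, without TMM factors or without libraries of high negative probe, and 0 with no filter or as the ratio. Its 1 region call became 2 with upper-quartile scaling, 5 without TMM factors, 3 with DESeq2, 5 with summed runs, 4 as the ratio, 2 without libraries of high negative probe and 3 with subtraction. For DD against DC, 0 Pcbd2 calls became 1 without TMM factors and 1 as the ratio.

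The no-filter fit, which adjusts over 19962 genes, ended these calls (log2): Tysnd1 genotype in DC cortex 1.14, region in APOE3 DD -1.58 and APOE3 DC -1.50; Pcbd2 genotype in DC cortex -0.061 and in vehicle hippocampus -0.98, region in APOE4 vehicle -1.59 and in the vehicle mean -1.17. The ratio to the negative probe ended the call of Tysnd1 in DC cortex (0.77) and of Pcbd2 in DC cortex (-0.35) and vehicle hippocampus (-0.83). Without libraries of high negative probe the Pcbd2 value in DC cortex was -0.45 and the Tysnd1 region value in APOE4 DC was -0.55. Pcbd2 between genotypes in vehicle hippocampus was -0.41 with upper-quartile scaling and -0.39 without TMM factors.

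The differences given as descriptions moved as follows. Tysnd1 after DD in APOE4 hippocampus lay between 0.44 and 0.84 over the 9 alternatives. Pcbd2 after DC there was 1.52 without TMM factors, 0.22 without libraries of high negative probe, -0.47 with no filter and -0.58 as the ratio. The Tysnd1 region value in APOE3 vehicle was -1.32 without TMM factors, -1.04 with no filter, -0.90 with summed runs and -1.16 as the ratio. In APOE4 DD these settings gave -1.22, -1.21, -1.06 and -1.10. Without TMM factors, with no filter and as the ratio it was -1.50, -1.68 and -1.83 in APOE4 vehicle and -1.41, -1.36 and -1.50 in the vehicle mean. The treated mean was -1.71 with no filter and -1.82 as the ratio.

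The Tysnd1 region effect of DD minus DC in APOE4 lost its call with upper-quartile scaling (0.31), without TMM factors (0.16), with no filter (1.35), summed runs (0.62), the random block (0.76) and subtraction (0.074), and was -0.15 without libraries of high negative probe. That of APOE4 minus APOE3 with DC lost it with upper-quartile scaling (-0.31), without TMM factors (-0.36), with no filter (-1.06), summed runs (-0.69) and the ratio (-1.53), and was 0.043 without libraries of high negative probe and 0.35 with subtraction. The causes of these shifts were not tested.

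Leaving out single libraries gave 0.46 to 0.59 for Tysnd1 after DD, 0.73 to 1.20 for Pcbd2 after DC, -1.04 to -0.61 for Pcbd2 in vehicle hippocampus, -0.60 to -0.37 for the Tysnd1 region effect in APOE3 DC, 0.45 to 0.83 for its DD minus DC difference and -0.96 to -0.53 for its genotype difference. No paired analysis was possible because the labels give no replicate number that ties regions of different groups. Within runs of 2 wells, libraries differed by a median of log2 0.19 for Tysnd1 and 0.52 for Pcbd2 (48 pairs), against 0.28 and 0.45 between runs of a group (296 pairs). With hippocampal Pcbd2 counts as low as 2, small differences were not detectable at this depth.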
